A study of Mus musculus with 2 samples.

Results

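Mitochondrial ribosomal protein genes are the nuclear genes for the proteins of the ribosome that works inside mitochondria. They were taken from the table of gene expression in E8.5 mouse trunk as every gene whose symbol begins with Mrpl or Mrps followed by a digit. The rule found 77 of the 24340 genes in the table, 48 named for the large subunit (Mrpl) and 29 named for the small subunit (Mrps). It used symbols only and no measured value. The mitochondrial ribosome, or mitoribosome, translates the few mRNAs that mitochondrial DNA encodes, all of them for core subunits of the respiratory chain and ATP synthase. Its rRNAs come from mitochondrial DNA, whereas all of its proteins are made in the cytosol and imported. Part of them descend from bacterial ribosomal proteins and part have no bacterial counterpart, and loss of single members in mice or humans impairs oxidative phosphorylation.

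RNA-seq was carried out on dissected trunk of Aldh1a2-/- embryos and of wild-type embryos at E8.5, with 1 sample per genotype in the labels. Aldh1a2 (also called Raldh2) encodes the enzyme that makes retinoic acid (RA) in the trunk, and the knockout embryos, from matings of heterozygous parents, cannot make RA there. The head with the anterior hindbrain, the heart and the tissue caudal to the last somite had been cut away. The methods of the study mention 2 trunks of each genotype, but the table has a single value per gene and genotype, so no difference below has a replicate check and no test was run.

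Levels are in FPKM, that is, fragments scaled for the length of the transcript and for sequencing depth. A gene is called measured where it was above 0.5 FPKM in both samples, and higher or lower in Aldh1a2-/- where the log2 of the Aldh1a2-/- level divided by the wild-type level, with no pseudocount, was above 0.85 or below -0.85. The steps between low FPKM values put the depth at about 29200000 fragments in the Aldh1a2-/- sample and 28100000 in the wild-type sample. Aldh1a2 itself was at 11.7 FPKM in Aldh1a2-/- trunk and 128 FPKM in wild-type trunk, which fits the labels. Markers of other cells and of the trunk itself differed between the samples. All 9 measured of 10 yolk sac visceral endoderm markers were higher in Aldh1a2-/- (summed level of the list 6375 FPKM in Aldh1a2-/- and 455.8 FPKM in wild type), as were all 5 measured of 6 red blood cell markers (5843 FPKM in Aldh1a2-/- and 299.5 FPKM in wild type). Of 10 trunk markers 8 were measured and 7 of these were lower (summed level of the list 85.18 FPKM in Aldh1a2-/- and 341.8 FPKM in wild type), 9 of 10 head markers were at or under 0.5 FPKM in both samples, and 2 of 10 heart muscle markers, Tnnt2 and Myh7, were measured and higher. Markers without a ratio went both ways. Tbx6, of presomitic mesoderm, had 18.1 FPKM in Aldh1a2-/- and was listed at 0 in wild type, whereas Meox2, of somites, had 0.0882 FPKM in Aldh1a2-/- and 7.50 FPKM in wild type. Of the heart genes Tnni1 had 13.4 FPKM in Aldh1a2-/- and 0.436 FPKM in wild type and Myl7 had 2.36 FPKM in Aldh1a2-/- and was listed at 0 in wild type. Myl4 was listed at 0 in Aldh1a2-/- and had 7.15 FPKM in wild type, and Actc1 had 0.0531 FPKM in Aldh1a2-/- and 6.13 FPKM in wild type. The part of these other cells in the levels of the mitoribosomal genes was not tested. In bulk tissue, fewer cells that express a gene and less RNA per cell cannot be told apart.

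Nearly all members were transcribed at moderate levels in both samples: 73 of 77 were measured, and none was at or under 0.5 FPKM in both. Of the 73, 18 (24.7%) were higher in Aldh1a2-/- and 20 (27.4%) were lower, against 23.6% higher and 22.0% lower among the 9506 measured genes of the whole table. Together 52.1% of the measured members were past a cutoff, beside 45.6% of all measured genes. The log2 ratios of the members had a median of -0.12 with quartiles of -0.91 and 0.81, and those of all measured genes had a median of 0.02 with quartiles of -0.71 and 0.79. The members therefore spread to both sides about as far as genes at large where level is not matched. Shares at like level are given below. The summed level of the members was nearly level between the samples, at 3695 FPKM in Aldh1a2-/- and 3891 FPKM in wild type. The FPKM of all genes summed to 759577 in Aldh1a2-/- and 846496 in wild type. The members made up 0.486% of that sum in Aldh1a2-/- and 0.460% in wild type.

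Both subunits showed this two-sided spread. Of 46 measured large-subunit genes 12 were higher in Aldh1a2-/- and 13 lower. Their log2 ratios ran from -3.27 to 4.49 around a median of -0.07. Of 27 measured small-subunit genes 6 were higher and 7 lower. These ratios ran from -3.78 to 3.54 around a median of -0.16. The large-subunit genes summed to 2355 FPKM in Aldh1a2-/- and 2398 FPKM in wild type, and the small-subunit genes to 1340 FPKM in Aldh1a2-/- and 1493 FPKM in wild type. Of the FPKM of all genes, the large-subunit genes made up 0.310% in Aldh1a2-/- and 0.283% in wild type. The small-subunit genes made up 0.176% in both. Both medians are small beside the interquartile widths, which were 1.80 for the large and 1.48 for the small subunit, and on the TPM scale the large-subunit median was on the other side of 0, at 0.09.

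**Figure D1:**
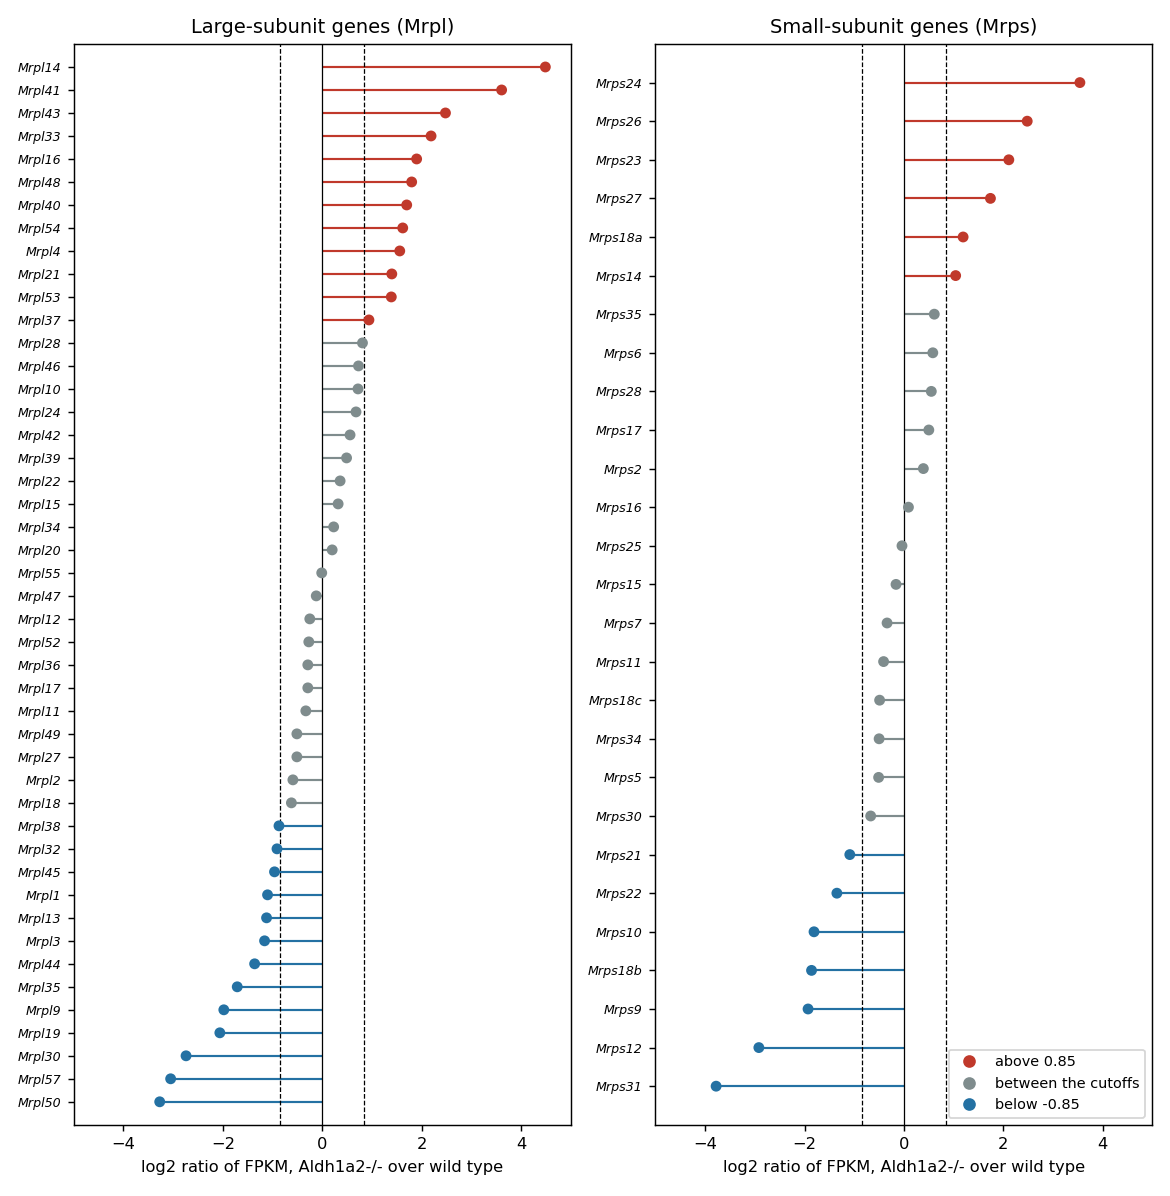
Log2 ratio of FPKM in Aldh1a2-/- trunk over wild-type trunk for each measured large-subunit gene (left, 46 genes) and small-subunit gene (right, 27 genes), 1 point per gene from 1 sample per genotype, with dashed lines at the cutoffs of 0.85 and -0.85. Ratios run in both subunits without a gap across 0, from Mrpl14 at 4.49 to Mrpl50 at -3.27 and from Mrps24 at 3.54 to Mrps31 at -3.78.

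By mean FPKM of both samples, the most abundant large-subunit genes were within the cutoffs, and the most abundant small-subunit genes were not all so. Mrpl52, a large-subunit protein with no bacterial counterpart, had the highest level, with 357 FPKM in Aldh1a2-/- and 431 FPKM in wild type (log2 ratio -0.27). Mrpl42 had 297 FPKM in Aldh1a2-/- and 202 FPKM in wild type (0.56). Mrpl12, the homolog of the bacterial stalk protein that recruits translation factors, had 195 FPKM in Aldh1a2-/- and 232 FPKM in wild type (-0.25). Mrpl18, which belongs to the family that binds 5S rRNA in bacteria, had 132 FPKM in Aldh1a2-/- and 202 FPKM in wild type (-0.62), and Mrpl20 had 117 FPKM in Aldh1a2-/- and 102 FPKM in wild type (0.20). So none of the 5 highest large-subunit genes was past a cutoff. Among the 5 highest small-subunit genes 3 were, beside 23.9% of all measured genes with a mean above 44.6 FPKM. With 5 genes each, no difference between the subunits is read from this. Mrps21, from the family of bacterial S21, had 180 FPKM in Aldh1a2-/- and 384 FPKM in wild type (-1.09). Mrps22, which causes a respiratory chain deficiency in humans when mutated, had 59.0 FPKM in Aldh1a2-/- and 150 FPKM in wild type (-1.35). Mrps26 went the other way, with 127 FPKM in Aldh1a2-/- and 22.8 FPKM in wild type (2.48). It ranks here through its level in Aldh1a2-/-. Mrps28, at 120 FPKM in Aldh1a2-/- and 81.6 FPKM in wild type (0.55), and Mrps5, at 60.3 FPKM in Aldh1a2-/- and 86.1 FPKM in wild type (-0.51), were within the cutoffs.

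**Figure D2:**
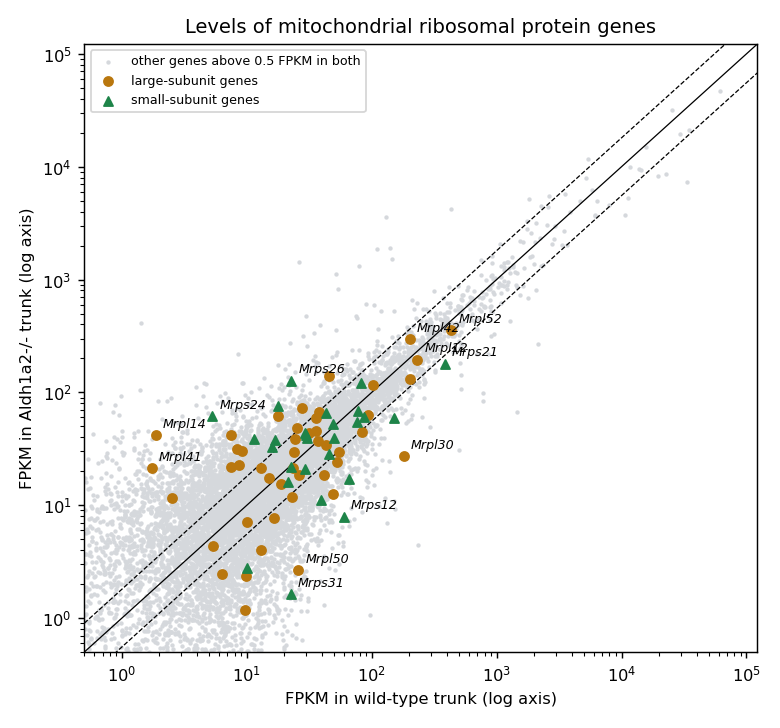
FPKM in Aldh1a2-/- trunk (vertical, log axis) against FPKM in wild-type trunk (horizontal, log axis) for large-subunit genes (circles) and small-subunit genes (triangles) over all measured genes (gray), with the line of equal levels and dashed lines at the cutoffs. Members lie on both sides of the line of equal levels, and at the upper end Mrpl52, Mrpl42 and Mrpl12 lie between the dashed lines and Mrps21 lies below them.

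The large-subunit genes that were higher were led by Mrpl14, Mrpl41 and Mrpl43. Mrpl14, on the subunit interface and the docking site of the assembly factor Malsu1 in the human ribosome, had 41.8 FPKM in Aldh1a2-/- and 1.86 FPKM in wild type (log2 ratio 4.49, chr17:45686372-45698495). Its wild-type level is worth only about 33.6 fragments, the fewest of any measured member. Mrpl41, a mitochondria-specific protein also known to bind Bcl2, had 21.2 FPKM in Aldh1a2-/- and 1.73 FPKM in wild type (3.61, chr2:24962422-24975098). Mrpl43 had 41.9 FPKM in Aldh1a2-/- and 7.50 FPKM in wild type (2.48, chr19:45005014-45006442). Mrpl33, a very small protein with a bacterial homolog, had 11.5 FPKM in Aldh1a2-/- and 2.51 FPKM in wild type (2.19). It had the largest counting error of the log2 ratio, about 0.27. Mrpl16, whose bacterial homolog lies close to the A-site tRNA, had 31.4 FPKM in Aldh1a2-/- and 8.41 FPKM in wild type (1.90). Mrpl4, which reaches into the exit tunnel in bacteria, had 21.9 FPKM in Aldh1a2-/- and 7.42 FPKM in wild type (1.56). The mitochondria-specific Mrpl54 had 139 FPKM in Aldh1a2-/- and 45.1 FPKM in wild type (1.62). These genes differ in place on the ribosome and in evolutionary origin. The other 5 were Mrpl48, at 61.8 FPKM in Aldh1a2-/- and 17.7 FPKM in wild type (1.80), Mrpl40 at 30.1 FPKM in Aldh1a2-/- and 9.24 FPKM in wild type (1.70), Mrpl21 at 22.8 FPKM in Aldh1a2-/- and 8.64 FPKM in wild type (1.40), Mrpl53 at 73.2 FPKM in Aldh1a2-/- and 27.9 FPKM in wild type (1.39) and Mrpl37 at 48.8 FPKM in Aldh1a2-/- and 25.4 FPKM in wild type (0.94).

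Among the 13 large-subunit genes that were lower, Mrpl50, Mrpl57 and Mrpl30 had the lowest ratios. Mrpl50, a mitochondria-specific protein, had 2.65 FPKM in Aldh1a2-/- and 25.7 FPKM in wild type (log2 ratio -3.27, chr4:49512597-49521083). Mrpl57, a mitochondria-specific protein of the large subunit, had 1.18 FPKM in Aldh1a2-/- and 9.74 FPKM in wild type (-3.05, chr14:57826239-57828745). Mrpl30, which has a bacterial homolog and is the most abundant of these genes in wild type, had 27.2 FPKM in Aldh1a2-/- and 181 FPKM in wild type (-2.74, chr1:37890553-37898333). At the estimated depth its levels are worth about 525 fragments in Aldh1a2-/- and 3366 in wild type, with a counting error of about 0.07. Mrpl19, at the subunit interface in bacteria, had 2.35 FPKM in Aldh1a2-/- and 9.79 FPKM in wild type (-2.06). Mrpl9, a protein with a bacterial homolog, had 12.5 FPKM in Aldh1a2-/- and 49.4 FPKM in wild type (-1.98). Mrpl35 had 3.98 FPKM in Aldh1a2-/- and 13.0 FPKM in wild type (-1.71). Mrpl44, which carries a ribonuclease III fold, and Mrpl3, whose bacterial homolog reaches toward the peptidyl transferase center, are both mutated in human cardiomyopathies. Mrpl44 had 2.48 FPKM in Aldh1a2-/- and 6.37 FPKM in wild type (-1.36). Mrpl3 had 18.5 FPKM in Aldh1a2-/- and 41.4 FPKM in wild type (-1.16). Mrpl1, the protein of the stalk by which spent tRNA leaves the bacterial ribosome, had 7.74 FPKM in Aldh1a2-/- and 16.6 FPKM in wild type (-1.10). Mrpl13 had 24.2 FPKM in Aldh1a2-/- and 52.3 FPKM in wild type (-1.12). The ratios of Mrpl45, Mrpl32 and Mrpl38 were close to the cutoff. Mrpl45 had 11.8 FPKM in Aldh1a2-/- and 22.9 FPKM in wild type (-0.96), and Mrpl32 had 44.7 FPKM in Aldh1a2-/- and 83.7 FPKM in wild type (-0.91).

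Of the small-subunit genes, Mrps24, Mrps26 and Mrps23 had the highest ratios. Mrps24, the counterpart of bacterial S3 at the mRNA entrance, had 61.8 FPKM in Aldh1a2-/- and 5.31 FPKM in wild type (log2 ratio 3.54, chr11:5703983-5707699). Mrps26 (2.48, chr2:130563757-130565394) is given above with the abundant genes. Mrps23, a mitochondria-specific protein, had 76.0 FPKM in Aldh1a2-/- and 17.7 FPKM in wild type (2.11). Mrps27, a protein with pentatricopeptide repeats, which bind RNA, had 38.3 FPKM in Aldh1a2-/- and 11.4 FPKM in wild type (1.74). Mrps14, the counterpart of bacterial S14 in the head of the subunit, had 32.7 FPKM in Aldh1a2-/- and 15.9 FPKM in wild type (1.04). The lowest ratio of any member belonged to Mrps31, a mitochondria-specific protein, with 1.63 FPKM in Aldh1a2-/- and 22.4 FPKM in wild type (-3.78, chr8:22411340-22429665). Mrps12, the homolog of the bacterial decoding-center protein in which streptomycin resistance arises, had 7.92 FPKM in Aldh1a2-/- and 59.9 FPKM in wild type (-2.92, chr7:28739641-28741781). Mrps9, whose bacterial homolog touches the P-site tRNA, had 17.1 FPKM in Aldh1a2-/- and 65.4 FPKM in wild type (-1.93). Mrps10, a protein of the head, had 11.1 FPKM in Aldh1a2-/- and 39.0 FPKM in wild type (-1.81). Mrps21 and Mrps22, described above, and Mrps18a and Mrps18b, described next, were also past a cutoff, and the remaining 14 measured small-subunit genes were not.

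The 3 genes of the Mrps18 family separated from one another. They are paralogs related to bacterial S18, and only Mrps18c takes the place of S18, whereas Mrps18b lies elsewhere in the small subunit and Mrps18a in the large subunit. Mrps18a was higher, with 38.1 FPKM in Aldh1a2-/- and 16.7 FPKM in wild type (log2 ratio 1.19). Mrps18b was lower, with 2.78 FPKM in Aldh1a2-/- and 10.1 FPKM in wild type (-1.86). Mrps18c was between the cutoffs, with 20.8 FPKM in Aldh1a2-/- and 29.2 FPKM in wild type (-0.49). Mrps30 is a second gene named for the small subunit whose protein sits in the large one, and it had 28.6 FPKM in Aldh1a2-/- and 45.4 FPKM in wild type (-0.67). Counted by place in the structure, 13 of 48 measured large-subunit genes were higher and 13 lower, and 5 of 25 measured small-subunit genes were higher and 7 lower, with the same medians of -0.07 and -0.16 as by name.

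Another 4 members were listed at 0 in 1 sample and so have no ratio. Mrpl51, a mitochondria-specific large-subunit protein, was listed at 0 in Aldh1a2-/- and at 22.9 FPKM in wild type, and Mrpl23, from the family at the rim of the exit tunnel, was listed at 0 in Aldh1a2-/- and at 0.872 FPKM in wild type. Mrps33 had 7.24 FPKM in Aldh1a2-/- and was listed at 0 in wild type. Mrps36 had 4.54 FPKM in Aldh1a2-/- and was listed at 0 in wild type. Mrps36 is now known as a subunit of the 2-oxoglutarate dehydrogenase complex and not of the mitoribosome, although its symbol places it among the small-subunit genes. Of 12354 genes above 0.5 FPKM in either sample, 17.1% were listed at 0 in the other, so a listed 0 was common in the table. All 4 have status OK in the table, and a listed 0 is not taken here as absence. Named pseudogenes are annotated for Mrpl23, Mrpl48 and Mrps36, and how reads shared with such copies were divided is not given in the sources used here.

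Next, 3 functional sites of the large subunit were looked at apart. In the stalk that draws translation factors to the ribosome, none of the 3 genes was past a cutoff: Mrpl10 had 21.4 FPKM in Aldh1a2-/- and 13.0 FPKM in wild type (log2 ratio 0.72), Mrpl11 had 34.5 FPKM in Aldh1a2-/- and 43.3 FPKM in wild type (-0.33), and Mrpl12 is given above. Around the exit of the peptide tunnel, 1 of 5 measured genes was past a cutoff. That gene was Mrpl45 (-0.96), which anchors the ribosome to the inner membrane. Mrpl4 (1.56), which reaches into the tunnel in bacteria, was not placed at this site. Mrpl17 had 15.3 FPKM in Aldh1a2-/- and 18.7 FPKM in wild type (-0.29), and Mrpl22 had 45.6 FPKM in Aldh1a2-/- and 35.5 FPKM in wild type (0.36). Mrpl24 had 38.7 FPKM in Aldh1a2-/- and 24.1 FPKM in wild type (0.68), and Mrpl47 had 21.5 FPKM in Aldh1a2-/- and 23.4 FPKM in wild type (-0.12). In the central protuberance, which faces the head of the small subunit, 2 of 6 genes were higher and 1 was lower. Mrpl40 (1.70) and Mrpl48 (1.80) were the higher ones. Mrpl38, a relative of phosphatidylethanolamine-binding proteins, was lower, with 29.8 FPKM in Aldh1a2-/- and 54.5 FPKM in wild type (-0.87), barely past the cutoff. Mrpl46 had 59.0 FPKM in Aldh1a2-/- and 35.7 FPKM in wild type (0.73), Mrpl27 had 7.05 FPKM in Aldh1a2-/- and 10.0 FPKM in wild type (-0.51), and Mrpl18 is given above. At each site some ratios were above 0 and some below. With 3 to 6 genes a site and 45.6% of all measured genes past a cutoff, nothing particular to a site is read from these counts. Mrpl28 (66.5 FPKM in Aldh1a2-/- and 38.0 FPKM in wild type, 0.81) is the gene just inside the upper cutoff, and Mrpl37 (0.94) is just outside it.

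Split by evolutionary origin, the members differed in median, but only with genes at shared loci included. Of 45 measured genes with a bacterial homolog 7 were higher and 12 lower (median log2 ratio -0.25), and their list summed to 1930 FPKM in Aldh1a2-/- and 2448 FPKM in wild type. Of 28 measured mitochondria-specific genes 11 were higher and 8 lower (median 0.52), and their list summed to 1761 FPKM in Aldh1a2-/- and 1443 FPKM in wild type. Mrps18a (higher) and Mrps18b (lower) are counted here, as they are related to bacterial S18 but do not take its place. Of those 28, 7 share a locus entry with another gene, as described below, and 5 of these 7 were higher. Without them 6 of 21 mitochondria-specific genes were higher and 8 lower, with a median of -0.27, and without such genes 6 of 41 with a bacterial homolog were higher and 11 lower, with a median of -0.29. The share past a cutoff differed with and without them, at 66.7% of those 21 mitochondria-specific genes and 41.5% of those 41 with a bacterial homolog. Of all measured genes 23.6% were higher and 22.0% lower, 45.6% together. Leaving out genes at shared loci was chosen after seeing the data. No test was possible with 1 sample per genotype.

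Differences tended to be smaller in more abundant members. Across the 73 measured members the absolute log2 ratio and the log2 mean FPKM had a Pearson r of -0.31 and a Spearman rho of -0.29, while the signed ratio had 0.08 and 0.07. The levels in both samples had r = 0.54 and rho = 0.53 across the members, beside 0.77 and 0.75 across all 9506 measured genes. These correlations run across genes within the same pair of libraries, and genes are not independent replicates. When all measured genes were divided into quintiles by mean FPKM, the share past a cutoff was 61.9% in the lowest quintile, then 54.8%, 47.7%, 39.6%, and 23.9% in the highest. The members fell mainly in the upper quintiles, with 29 in the fourth and 23 in the highest. Of these, 15 of 29 (51.7%) and 8 of 23 (34.8%) were past a cutoff. From the lowest quintile up, the others had 2 of 3 (66.7%), 5 of 6 (83.3%) and 8 of 12 (66.7%). The share of members was thus above that of all measured genes in each quintile, with few members in the lower ones. Most member transcripts are short. Among the 1511 measured genes with a median transcript length under 1500 bases 50.6% were past a cutoff. Among the 46 members of that length 52.2% were, close to the background where level is not matched. Of all such short genes 53.8% were past a cutoff in the fourth quintile and 32.2% in the highest. Short members had 10 of 16 (62.5%) and 6 of 17 (35.3%) there. Longer members were not compared at like length. Counting error, estimated from the depth and transcript length, had a median of only 0.06 on the log2 scale over the measured members. It covers neither the preparation of the libraries nor the variation between embryos.

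**Figure D3:**
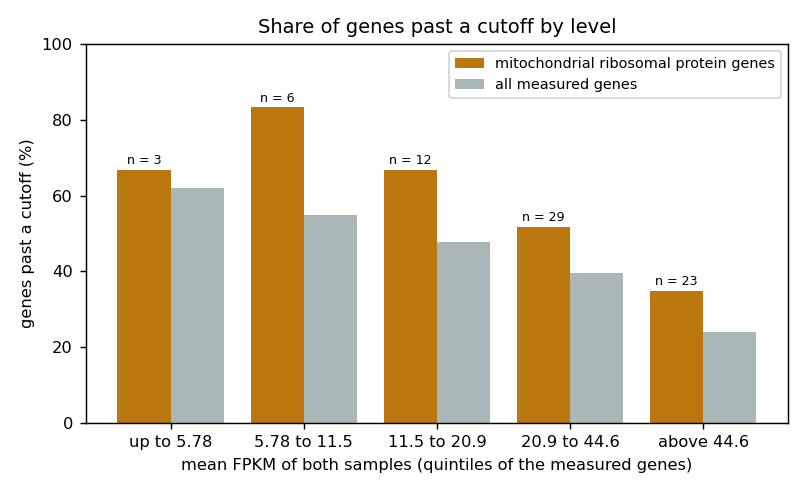
Percentage of genes past a cutoff in each quintile of mean FPKM, for the measured mitochondrial ribosomal protein genes (left bar of each pair, with their number n) and for all measured genes (right bar). The share falls with level in all measured genes, from 61.9% to 23.9%, and the 23 members in the highest quintile have 34.8%.

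Some members share an entry of the table's locus column with another gene, which means that the table gives the same span for both. There were 11 such measured members, of which 6 were higher and 1 was lower (median log2 ratio 1.39), against 12 higher and 19 lower of the 62 others (median -0.28). Of all measured genes 23.6% were higher and 22.0% lower. The shares among all genes of the table at shared loci were not taken. Mrpl41 shares its entry with Dph7, Mrpl48 with Rab6a, Mrpl53 with Ccdc142, Mrpl21 with Mir6984, Mrps27 with 6430562O15Rik and Mrps23 with Cuedc1 and 2210416O15Rik. The lower one is Mrpl19, which shares with Gcfc2. Among the 9 neighbors that are protein-coding genes, 5 had a ratio of the same sign as their member and 4 of the other. The same sign was found for Gcfc2, with 6.79 FPKM in Aldh1a2-/- and 11.9 FPKM in wild type (-0.81), Rrnad1 beside Mrpl24, with 10.2 FPKM in Aldh1a2-/- and 2.14 FPKM in wild type (2.26), Rab6a, with 61.4 FPKM in Aldh1a2-/- and 37.9 FPKM in wild type (0.70), Dph7, with 4.45 FPKM in Aldh1a2-/- and 3.84 FPKM in wild type (0.21), and Nr2c2 beside Mrps25 (-0.04), with 1.40 FPKM in Aldh1a2-/- and 5.11 FPKM in wild type (-1.87). The other sign was found for Cuedc1, with 4.50 FPKM in Aldh1a2-/- and 9.74 FPKM in wild type (-1.11), Ccdc142, with 0.646 FPKM in Aldh1a2-/- and 0.735 FPKM in wild type (-0.19), Syvn1 beside Mrpl49, with 16.7 FPKM in Aldh1a2-/- and 4.99 FPKM in wild type (1.74), and Slc5a3 beside Mrps6, with 7.55 FPKM in Aldh1a2-/- and 13.0 FPKM in wild type (-0.79). The part of read assignment within shared spans was not tested.

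Many mitoribosomal genes stand head to head with another coding gene, a layout in which a short stretch of DNA serves as promoter to both strands. Of the 77 members 24 (31.2%) have a coding gene starting on the other strand within 500 bases, against 13.4% of all measured genes with an annotated start. In 17 such pairs both genes were measured. In 5 of them both were past a cutoff in the same direction, in 1 they were past it in opposite directions, in 3 only the member was, in 4 only the neighbor, and in 4 neither. Over all 469 head-to-head pairs of measured genes, which include these, 46 (9.81%) were past a cutoff in the same direction and 47 in opposite directions, beside 29.4% and 5.88% of the 17. The ratios of member and neighbor had the same sign in 8 of the 17 (47.1%) and in 50.7% of all 469. Mrpl14 was paired with Tmem63b, at 24.0 FPKM in Aldh1a2-/- and 8.76 FPKM in wild type (log2 ratio 1.46). Mrpl54 was paired with Apba3, at 29.8 FPKM in Aldh1a2-/- and 8.88 FPKM in wild type (1.75), 26 bases apart. Mrps27 was paired with Ptcd2, a mitochondrial pentatricopeptide repeat gene, at 58.1 FPKM in Aldh1a2-/- and 18.0 FPKM in wild type (1.69). All of these were higher together with their member. Mrpl32 and the proteasome gene Psma2 were lower together, Psma2 having 41.1 FPKM in Aldh1a2-/- and 99.0 FPKM in wild type (-1.27). So were Mrpl57 and Ska3, a gene of the kinetochore, which had 1.52 FPKM in Aldh1a2-/- and 31.1 FPKM in wild type (-4.36). Mrpl30 and Mitd1 were the opposite pair, Mitd1 having 20.8 FPKM in Aldh1a2-/- and 10.7 FPKM in wild type (0.95). In the 4 pairs with only the neighbor past a cutoff, the neighbor was higher and the member had a ratio below 0. Klc4, beside Mrpl2 (-0.59), had 31.5 FPKM in Aldh1a2-/- and 2.97 FPKM in wild type (3.41). Ndufs6, a complex I subunit beside Mrpl36 (-0.29), had 44.3 FPKM in Aldh1a2-/- and 7.31 FPKM in wild type (2.60). Eme2, beside Mrps34 (-0.50), had 22.2 FPKM in Aldh1a2-/- and 4.19 FPKM in wild type (2.40), and Fau, beside Mrpl49 (-0.51), had 2062 FPKM in Aldh1a2-/- and 1070 FPKM in wild type (0.95). Mrpl46 and Mrps11 are neighbors from both subunits whose starts are 30 bases apart, and neither was past a cutoff (0.73 and -0.41). Mrps12 starts 182 bases from Sars2, the mitochondrial seryl-tRNA synthetase, which had 0.480 FPKM in Aldh1a2-/- and 10.5 FPKM in wild type and is not measured by the floor. Over the 17 pairs the ratios of member and neighbor had a Pearson r of 0.35 and a Spearman rho of 0.38, given as a description across genes of the same libraries.

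**Figure D4:**
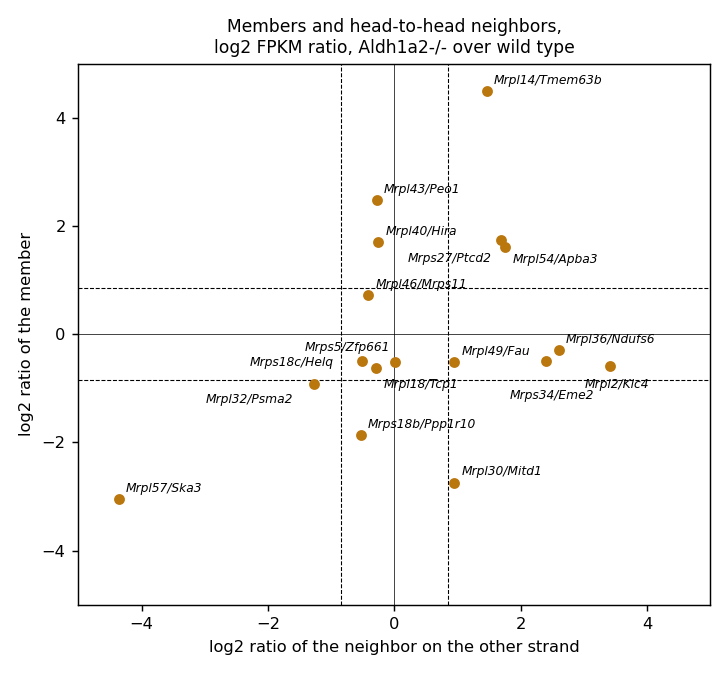
Log2 ratio of FPKM in Aldh1a2-/- trunk over wild-type trunk of each member (vertical) against that of the coding gene starting within 500 bases on the other strand (horizontal), 1 point per pair for 17 pairs, with dashed lines at the cutoffs. Beyond both cutoffs, Mrpl14, Mrpl54 and Mrps27 lie at the upper right, Mrpl57 and Mrpl32 at the lower left and Mrpl30 at the lower right, where Mrpl2, Mrpl36, Mrps34 and Mrpl49 are past the neighbor's cutoff only.

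Promoters were read to show what sequence the members share. Mouse RefSeq promoters (GRCm38.p6, the assembly of mm10, 250 bases before to 50 after the start) were matched by symbol for 68 of the 77 members. Words of 3 factors known for genes of mitochondrial biogenesis were searched on both strands: CCGGAAG for GABPA (NRF2), an ETS factor, AAGATGG for YY1, and GCGCA directly followed by TGCGC for NRF1. The GABPA word was in 25 member promoters (36.8%), against 22.3% of measured genes and 9.93% of all 27025 promoters. The YY1 word was in 13 (19.1%), against 9.04% of measured genes and 7.28% of all promoters, and the NRF1 word in 3 (4.41%, Mrpl9, Mrpl32 and Mrpl39), against 2.61% and 1.07%. Direct repeats of AGGTCA with 1, 2 or 5 bases between, the form of RA response elements, were in 0 of the 68. They are rare at large: the repeat with 1 base between was in 2 of the 7243 promoters of measured genes, and those with 2 or 5 were in 0, so nothing is read from this count. No other spelling of these elements was searched. Full promoters of 4 members are shown as one example of each word or layout, 5′ to 3′ on the strand of the gene with the matched words in capitals. Mrpl9 (lower) holds the NRF1 word, Mrps26 (higher) the GABPA word as its reverse complement, Mrps12 (lower) the GABPA word and, as its reverse complement, the YY1 word, and Mrps11 covers the stretch between its own start and that of Mrpl46, with the YY1 word as its reverse complement.
Mrpl9 (chr3:94443086-94443385, plus strand): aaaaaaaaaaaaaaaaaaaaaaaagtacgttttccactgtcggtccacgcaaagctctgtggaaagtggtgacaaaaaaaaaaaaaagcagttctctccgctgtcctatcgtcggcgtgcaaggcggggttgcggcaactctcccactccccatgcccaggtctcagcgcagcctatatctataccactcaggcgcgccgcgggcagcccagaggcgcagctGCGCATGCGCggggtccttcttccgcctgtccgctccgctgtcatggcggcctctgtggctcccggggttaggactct
Mrps26 (chr2:130563507-130563806, plus strand): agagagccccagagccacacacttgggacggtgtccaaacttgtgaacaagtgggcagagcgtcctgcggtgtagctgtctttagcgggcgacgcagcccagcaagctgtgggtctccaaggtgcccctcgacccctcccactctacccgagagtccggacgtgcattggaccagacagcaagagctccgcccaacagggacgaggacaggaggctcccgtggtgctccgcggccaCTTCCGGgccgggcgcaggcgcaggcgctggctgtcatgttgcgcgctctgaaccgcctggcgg
Mrps12 (chr7:28741772-28742071, minus strand): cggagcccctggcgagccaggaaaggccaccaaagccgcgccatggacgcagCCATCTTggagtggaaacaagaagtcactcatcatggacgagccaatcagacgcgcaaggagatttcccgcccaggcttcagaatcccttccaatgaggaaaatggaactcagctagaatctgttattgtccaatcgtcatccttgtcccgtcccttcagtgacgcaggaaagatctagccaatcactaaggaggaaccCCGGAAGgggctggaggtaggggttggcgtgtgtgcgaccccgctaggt
Mrps11 (chr7:78782881-78783180, plus strand): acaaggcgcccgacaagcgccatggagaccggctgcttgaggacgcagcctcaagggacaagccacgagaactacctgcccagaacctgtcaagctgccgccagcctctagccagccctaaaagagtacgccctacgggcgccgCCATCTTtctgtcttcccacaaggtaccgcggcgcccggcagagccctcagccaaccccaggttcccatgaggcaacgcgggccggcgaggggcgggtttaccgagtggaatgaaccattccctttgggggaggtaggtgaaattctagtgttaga

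Members with the GABPA word were on both sides of the cutoffs. Of 23 measured members with the word 9 were higher and 6 were lower (median log2 ratio 0.09), and of 41 without it 7 were higher and 11 were lower (median -0.16). Of all measured genes 23.6% were higher and 22.0% lower. The shares among all measured genes with the word were not taken, so nothing is read from these counts. Gabpa itself, the DNA-binding subunit, was lower, with 14.4 FPKM in Aldh1a2-/- and 28.5 FPKM in wild type (-0.98). The words are shown with 9 bases on either side, to let the flanks of higher and lower genes be compared, each read on the strand that spells CCGGAAG (capitals). The first 9 are from higher genes, in falling order of their ratio from Mrps26 (2.48) to Mrps18a (1.19), with 1 window for each gene.
Mrps26 (chr2:130563734-130563758, minus strand): gcgcccggcCCGGAAGtggccgcgg
Mrpl43 (chr19:45006439-45006463, minus strand): accccggaaCCGGAAGtcaccggtt
Mrpl33 (chr5:31613939-31613963, plus strand): gcgcatgccCCGGAAGtagtcgttg
Mrps23 (chr11:88204394-88204418, minus strand): gggctgttaCCGGAAGcggaagcgg
Mrpl48 (chr7:100583149-100583173, plus strand): atcttggttCCGGAAGtttttaaaa
Mrps27 (chr13:99344729-99344753, minus strand): ccgcctccgCCGGAAGtggtcctac
Mrpl21 (chr19:3283040-3283064, minus strand): cagtcccaaCCGGAAGcggaagcag
Mrpl53 (chr6:83109083-83109107, minus strand): acctccaccCCGGAAGgagtagcac
Mrps18a (chr17:46110969-46110993, plus strand): acccctgctCCGGAAGcggaagtgc

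The following 5 are from lower genes, in rising order of their ratio from Mrpl57 (-3.05) to Mrps21 (-1.09). Mrps18b, whose word lies at the edge of its promoter, is not shown.
Mrpl57 (chr14:57826234-57826258, plus strand): ccagagagaCCGGAAGcagcgcgcc
Mrps12 (chr7:28741805-28741829, minus strand): ggaggaaccCCGGAAGgggctggag
Mrps22 (chr9:98601675-98601699, minus strand): cctctcgagCCGGAAGttgctctat
Mrpl3 (chr9:105053240-105053264, plus strand): agaaacggaCCGGAAGtggcccggc
Mrps21 (chr3:95871481-95871505, plus strand): ctctgcggaCCGGAAGcggaagcta

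Set beside the cytosolic ribosome, the mitoribosomal genes were spread far more widely. Of 74 measured cytosolic ribosomal protein genes 3 were on the higher side and 5 on the lower, 10.8% past a cutoff, with an interquartile width of 0.59 against 1.71 for the mitoribosomal genes. The cytosolic genes are also far more abundant, with a median over the list of 306 FPKM in Aldh1a2-/- and 353 FPKM in wild type, against 31.4 FPKM in Aldh1a2-/- and 25.7 FPKM in wild type for the mitoribosomal list. Respiratory chain and ATP synthase genes from the nucleus were nearer, with 11 of 69 measured genes higher and 16 lower, 39.1% past a cutoff and a median log2 ratio of 0.08.

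**Figure D5:**
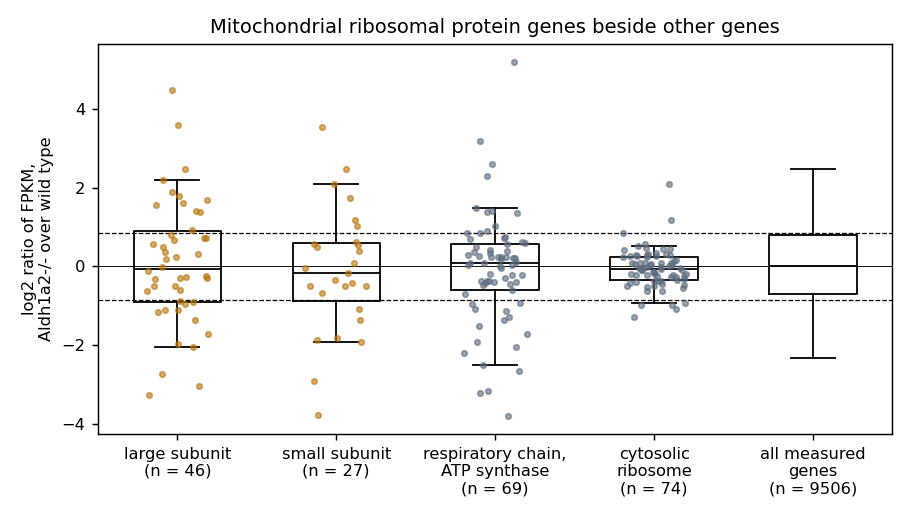
Log2 ratio of FPKM in Aldh1a2-/- trunk over wild-type trunk for measured large-subunit (46) and small-subunit (27) mitoribosomal genes, respiratory chain and ATP synthase genes (69), cytosolic ribosomal protein genes (74) and all measured genes (9506), with each gene as a point except in the last group. Boxes give the median and quartiles, whiskers the range of the ratios without the 5% at either end, and dashed lines the cutoffs, and the box of the cytosolic ribosome is the narrowest, with an interquartile width of 0.59.

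Other genes of mitochondrial translation are given by list. Of 7 mitoribosomal proteins whose symbols fall outside the rule, Chchd1 was higher, with 120 FPKM in Aldh1a2-/- and 63.2 FPKM in wild type (log2 ratio 0.93). Ict1, a peptidyl-tRNA hydrolase built into the large subunit, was lower, with 25.5 FPKM in Aldh1a2-/- and 79.7 FPKM in wild type (-1.64), as was Ptcd3, an RNA-binding protein of the small subunit, with 26.3 FPKM in Aldh1a2-/- and 56.9 FPKM in wild type (-1.12). Gadd45gip1 had 33.3 FPKM in Aldh1a2-/- and 25.3 FPKM in wild type (0.40). Dap3, the GTP-binding protein of the small subunit, had 6.48 FPKM in Aldh1a2-/- and 5.94 FPKM in wild type (0.13). Of 18 measured genes of ribosome assembly and rRNA modification 6 were higher and 6 were lower. Another 5 of that list were listed at 0 in Aldh1a2-/- and above 0.5 FPKM in wild type, and 2 the other way. The rRNA-binding Fastkd2 had 1.42 FPKM in Aldh1a2-/- and 9.98 FPKM in wild type (-2.82), the rRNA methyltransferase Rnmtl1 had 23.1 FPKM in Aldh1a2-/- and 3.34 FPKM in wild type (2.79), Ngrn, needed for the large-subunit rRNA in human cells, had 34.3 FPKM in Aldh1a2-/- and 6.45 FPKM in wild type (2.41), and Eral1, a chaperone of the small-subunit rRNA, had 18.6 FPKM in Aldh1a2-/- and 4.59 FPKM in wild type (2.02). Of 14 genes in the list of translation factors 2 were higher and 5 were lower. This list also holds Lrpprc (0.28) and Slirp (0.14), which act on mRNA stability and were between the cutoffs. The recycling factor Mrrf had 1.59 FPKM in Aldh1a2-/- and 15.3 FPKM in wild type (-3.27), the elongation factor Tsfm had 6.26 FPKM in Aldh1a2-/- and 30.1 FPKM in wild type (-2.27), and the methionyl-tRNA formyltransferase Mtfmt had 6.84 FPKM in Aldh1a2-/- and 1.39 FPKM in wild type (2.30). Taco1, an activator of Cox1 translation, had 1.17 FPKM in Aldh1a2-/- and 3.71 FPKM in wild type (-1.67). Of 18 measured genes for mitochondrial tRNA charging 5 were higher and 6 were lower. In that list 3 more were listed at 0 in Aldh1a2-/- and above 0.5 FPKM in wild type, and 0 the other way. Gatb, a subunit of the glutamyl-tRNA amidotransferase, had 7.48 FPKM in Aldh1a2-/- and 0.598 FPKM in wild type (3.64), and the glutamyl-tRNA synthetase Ears2 had 7.49 FPKM in Aldh1a2-/- and 1.18 FPKM in wild type (2.67). The arginyl-tRNA synthetase Rars2 had 6.38 FPKM in Aldh1a2-/- and 28.5 FPKM in wild type (-2.16), and the alanyl-tRNA synthetase Aars2 had 29.2 FPKM in Aldh1a2-/- and 6.78 FPKM in wild type (2.11). Among all measured genes 23.6% were higher and 22.0% lower, beside 14.3% and 35.7% of the translation factors, 33.3% and 33.3% of the assembly genes and 27.8% and 33.3% of the genes for tRNA charging.

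Of 6 measured genes that copy or transcribe mitochondrial DNA 2 (33.3%) were higher and 2 (33.3%) were lower, against 23.6% and 22.0% of all measured genes. Another 2 were listed at 0 in Aldh1a2-/- and above 0.5 FPKM in wild type, and 0 the other way. Of the 12354 genes above 0.5 FPKM in either sample, 1464 were listed at 0 in Aldh1a2-/- and 644 in wild type. Nothing is read from the 2 genes. Polrmt, the RNA polymerase, had 17.8 FPKM in Aldh1a2-/- and 5.72 FPKM in wild type (log2 ratio 1.64), and Polg, the DNA polymerase, had 63.9 FPKM in Aldh1a2-/- and 21.5 FPKM in wild type (1.57). Tfam, which packs the DNA and starts transcription, had 19.5 FPKM in Aldh1a2-/- and 35.7 FPKM in wild type (-0.88) and Ssbp1, which coats single-stranded DNA, had 34.8 FPKM in Aldh1a2-/- and 115 FPKM in wild type (-1.73). Among regulators of mitochondrial biogenesis 1 of 9 measured genes (11.1%) was higher and 3 (33.3%) were lower, against the same 23.6% and 22.0%. Mycn, a driver of growth and ribosome production, had 13.0 FPKM in Aldh1a2-/- and 58.9 FPKM in wild type (-2.18), and Myc had 27.2 FPKM in Aldh1a2-/- and 26.2 FPKM in wild type (0.05). Gabpb2, which encodes a partner of Gabpa, had 6.82 FPKM in Aldh1a2-/- and 17.2 FPKM in wild type (-1.34), and the nuclear receptor gene Esrra had 2.32 FPKM in Aldh1a2-/- and 0.601 FPKM in wild type (1.95). Nrf1 (22.3 FPKM in Aldh1a2-/- and 17.0 FPKM in wild type, 0.39) and Yy1 (72.0 FPKM in Aldh1a2-/- and 80.0 FPKM in wild type, -0.15) were between the cutoffs.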

How the data were processed

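RNA-seq of E8.5 trunk gave 1 Aldh1a2-/- and 1 wild-type sample. The authors deposited 1 table of FPKM values on mm10. STAR, Cufflinks and Cuffdiff are named, without versions, in the processing notes of the submitters, whereas the methods of the study name TopHat and edgeR's likelihood ratio test. The labels describe 2 library kits and single reads of 75 bases. The table also holds the authors' fold change, test statistic, p-value and q-value, which were not used. Its status column was used only to keep genes with status OK (12520 genes, all 77 members) in an alternative. Columns of other samples numbered 0.

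The log2 ratio was taken on the deposited FPKM without scaling, with the study's floor and cutoffs. FPKM are not counts and there is 1 sample per genotype, so no test was run. Depth was estimated from the steps of low FPKM values (29 genes in Aldh1a2-/- and 36 in wild type), which, tested on simulated data with exact transcript lengths, recovered the simulated depth of 28000000 fragments from 3794 genes. Here fewer genes lie on the steps and their lengths are less certain, and counting errors derived from it are approximate and cover counting only. Transcript starts and lengths are from the mm10 annotation.

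The members, lists and cutoffs were chosen with earlier results of these data known. Named are members past a cutoff, near it or at 0, the most abundant members, those of the sites described, the Mrps18 family, Mrps30, Mrps36, Mrpl38 and Mrpl43, and from each list of other mitochondrial genes the 4 with the largest absolute ratios. Marker lists are given by counts and sums. Dap3, Oxa1l, Lrpprc, Slirp, Myc, Nrf1, Yy1, the markers, the neighbors at shared loci and the head-to-head neighbors were named after their values were seen. Alternatives were other floors, pseudocounts, cutoffs and scalings, genes with status OK, subunit by structure, leaving out Mrpl38 and Mrpl43, which a table of the study lists, and, chosen after seeing the data, leaving out members at shared loci. Scripts ran in Python 3.11.15 with pandas 2.3.3 and numpy 2.4.6, and figures were drawn with matplotlib 3.10.9.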

Additional observations from a re-analysis of the deposited data

How the results depend on the processing

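The counts of higher and lower genes in both subunits stayed within 1.5 times of their values under all 14 alternatives, except that 8 large-subunit genes were lower where 5 FPKM in both samples was required. That floor keeps fewer genes. The medians are close to 0 and moved by more than 0.1 under 6 alternatives. For large-subunit genes the median was 0.20 above 5 FPKM, -0.18 with a floor of 0.5 FPKM in either sample and a pseudocount of 0.5, -0.18 with no floor and a pseudocount of 1, 0.09 on the TPM scale, -0.17 with upper quartile scaling and -0.25 without members at shared loci. For small-subunit genes the median under the same settings was -0.04, -0.04, -0.04, -0.01, -0.27 and -0.41. The median of all measured genes itself shifted by 0.15 on the TPM scale, by -0.10 with upper quartile scaling and by -0.12 with the either-sample floor. On the TPM scale 21 members were higher and 17 lower, and without members at shared loci 12 were higher and 19 lower. No paired analysis was possible because each genotype has 1 sample, and for the same reason no sample could be left out.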
